A study of Mus musculus with 20 samples.

Results

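The 46 genes described here encode ligands, receptors, extracellular regulators, Smad proteins and target genes of the transforming growth factor beta (TGF-beta) and bone morphogenetic protein (BMP) pathways. They were taken from the count table by gene symbol: 13 ligands, 11 receptors, 11 extracellular regulators, 5 Smads and 6 targets. The genes were chosen with earlier results of these data known, so shares set beside all tested genes below are descriptive. All 46 matched 1 row each among the 46603 genes of the deposited count table, and all 46 were among the 17236 genes with enough counts to be tested. RNA was sequenced from cells sorted by flow cytometry from the fourth inguinal mammary glands of FVB/N mice (virgin females, 6 to 8 weeks old), after lineage-positive cells had been depleted. No allele, transgene or treatment is named for any group. Mammary repopulating units (MRU) are cells of a gate enriched for basal, repopulating epithelium. The first population was the MRU positive for the membrane glycoprotein CD200 and for its receptor CD200R1 (CD200+CD200R1+ MRU). Remaining MRU were the MRU outside that double-positive gate, and their labels can also be read as negative for both proteins. CD200+ non-MRU lay outside the MRU gate and were positive for CD200 and negative for CD200R1. CD200R1+ non-MRU lay outside it too, negative for CD200 and positive for CD200R1. Each population was sorted from the same 5 mice, numbered 2 to 6, as 1000 cells per library, which gave 20 libraries. The CD200R1+ non-MRU library of mouse 4 received about 10% of its cells from mouse 3.

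TGF-beta, activin and BMP ligands are secreted dimers that bring together type I and type II serine/threonine kinase receptors. TGF-beta and activin receptors mainly phosphorylate Smad2 and Smad3, and BMP receptors Smad1, Smad5 and Smad9, which enter the nucleus with Smad4. Outside the cell, latent TGF-beta binding proteins hold TGF-beta in the matrix, and follistatin, noggin, chordin and gremlin bind ligands and keep them from receptors. Inside it, Smad6 and Smad7 inhibit the receptors, and the Id genes are induced by BMP in many cell types. In the mammary gland, TGF-beta is known as an inhibitor of ductal growth.

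Library totals ran from 10853587 to 13862963 counts, and 22188 to 26264 genes had a count in each library. Levels are CPM, which are gene counts brought to the same library total and scaled by edgeR's TMM factors. Gene coordinates are those of GENCODE M21 on build GRCm38. Values are listed per library in the order of mice 2 to 6, or as mean ± SD (n = 5). Fold changes on the log2 scale, their standard errors (SE) and Benjamini-Hochberg adjusted p-values over all tested genes come from edgeR's quasi-likelihood test on the 20 libraries, and a gene passed at an adjusted p below 0.05. The mean TMM factor was 0.81 in CD200R1+ non-MRU and 1.05 to 1.08 elsewhere. With library size alone the median change over all genes shifted by 0.39 to 0.43 on the log2 scale in the 3 comparisons with CD200R1+ non-MRU, so changes in those are relative to the TMM scaling.

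Markers of cell types were summed per library. The 8 basal markers summed to 12907 to 25041 CPM in CD200+CD200R1+ MRU, 11242 to 19259 CPM in remaining MRU, 304 to 1047 CPM in CD200+ non-MRU and 33.3 to 161 CPM in CD200R1+ non-MRU. The 10 luminal markers were highest in CD200+ non-MRU, at 12978 to 22509 CPM, against 44.2 to 172 CPM in CD200R1+ non-MRU. CD200R1+ non-MRU, labelled epithelial, thus had the lowest sums of both epithelial lists and the highest of the fibroblast list, with 9 markers summing to 69349 to 94953 CPM. That fibroblast sum was 992 to 1589 CPM in CD200+CD200R1+ MRU, 687 to 1257 CPM in remaining MRU and 7239 to 17854 CPM in CD200+ non-MRU. Lymphocyte markers, 8 in number, summed to 1145 to 2510.4 CPM in CD200+ non-MRU and to at most 427 CPM in any other library. None of the epithelial, fibroblast or lymphocyte markers was at 0 in a whole population. In these bulk libraries, fewer cells of a type and less RNA per cell cannot be told apart.

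Within the MRU gate, markers of blood vessels and fat also differed. The 10 endothelial markers summed to 58.8 to 242 CPM in CD200+CD200R1+ MRU, against 2126 to 2981 CPM in remaining MRU, and 10 of 10 were lower. For the 8 pericyte markers the sums were 41.7 to 88.6 CPM in CD200+CD200R1+ MRU and 521 to 741 CPM in remaining MRU, with 7 lower. The 7 adipocyte markers gave 156 to 368 CPM in CD200+CD200R1+ MRU and 4045 to 5774 CPM in remaining MRU, with 3 lower. Macrophage markers ran the other way, at 2720.3 to 5709.5 CPM in CD200+CD200R1+ MRU and 1324 to 2169 CPM in remaining MRU, with 5 of 8 higher. None of these markers was at 0 in either MRU population. Their part in the pathway results below was not tested.

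Of the 46 genes, 36 reached a mean of 10 CPM in at least 1 population, and 44 passed in at least 1 of the 6 comparisons between populations, as did 77% of all tested genes. The highest mean lay in CD200+CD200R1+ MRU for 13 genes, in remaining MRU for 8 genes, in CD200+ non-MRU for 7 genes and in CD200R1+ non-MRU for 18 genes. Of all tested genes, 22.4%, 15.8%, 29.6% and 32.2% had their highest mean in the same populations, in that order. In every library of both MRU populations, Id4, Ltbp2 and Bmpr1b were higher and Gdf10, Bmper and Tgfbr2 lower than in every library of both non-MRU populations. The share of all tested genes separated in this way is not given here, so it cannot be said whether that is unusual. Bmpr1b had only 7 counts in all in CD200R1+ non-MRU.

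**Figure D1:**
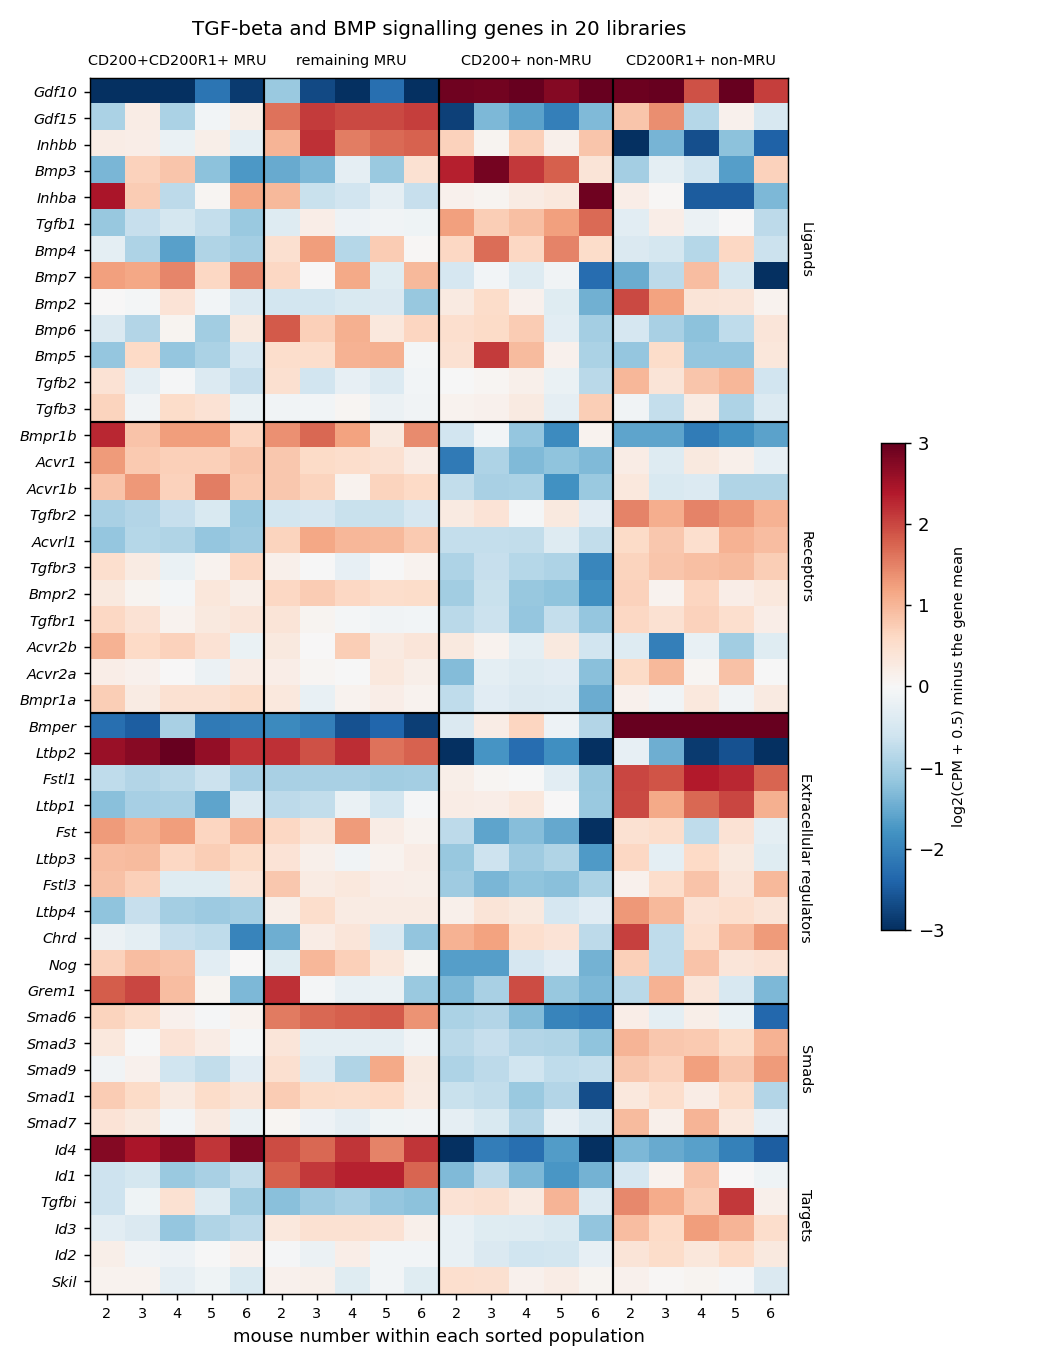
Each row is a TGF-beta or BMP signalling gene and each column a library; colour is log2(CPM + 0.5) minus the mean of that gene over the 20 libraries, capped at 3 in either direction. Rows are grouped by role and ordered by range. Gdf10 is dark blue in both MRU populations, Ltbp2 and Id4 are red there, Id1 is reddest in remaining MRU, and Bmper, Fstl1 and Ltbp1 are reddest in CD200R1+ non-MRU.

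Within the MRU gate, 0 of the 46 genes were higher and 9 (19.6%) lower in CD200+CD200R1+ MRU than in remaining MRU, against 1.62% higher and 6.64% lower of all tested genes. The median log2 fold change of the 46 was 0.08, against 0.02 for all tested genes. The 9 lower genes were the ligands Tgfb1, Bmp4, Inhbb and Gdf15, the receptor Acvrl1, the latent TGF-beta binding protein Ltbp4, the inhibitory Smad6 and the targets Id1 and Id3. Libraries of the 2 populations did not overlap for any of the 9 except Bmp4, but the 9 were selected by passing this comparison. Bmp2, Bmpr2 and Ltbp3, which did not pass, did not overlap either. The share of all tested genes without overlap is not given here. At an unadjusted p below 0.05, 5 genes were higher and 12 lower. The count of higher genes was 2 with DESeq2, 3 with voom, 6 with the MRU libraries alone and 2 in a fit blocked by mouse. Lower genes numbered 9, 9, 11 and 9 in the same fits. The shares of all tested genes in these fits are not given here, so these counts cannot be set against a background.

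Between the non-MRU populations, 7 genes (15.2%) were higher and 29 (63%) lower in CD200+ non-MRU than in CD200R1+ non-MRU, against 23.8% higher and 28.6% lower of all tested genes. Their median log2 fold change was -0.91, against -0.06. By role, 6 of 13 ligands but 1 of 11 receptors and 0 of 11 extracellular regulators, 5 Smads and 6 targets were higher. Lower were 3 ligands, 9 receptors, 8 extracellular regulators, 5 Smads and 4 targets. With library size alone 9 of the 46 genes were higher and 22 lower, so that higher genes made up 29% of those that passed, against 19.4% with TMM. All genes then stood at 39.6% higher and 17.6% lower. Macrophage markers, 8 of 8, were also lower in CD200+ non-MRU, at sums of 43.4 to 201 CPM, against 1238 to 3312 CPM in CD200R1+ non-MRU, and their part was not tested.

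Against CD200+ non-MRU, both MRU populations had more genes higher than lower. In CD200+CD200R1+ MRU 22 (47.8%) were higher and 12 (26.1%) lower than in CD200+ non-MRU, against 23.9% and 24.6% of all tested genes, and the median log2 fold change was 0.57, against -0.03. In remaining MRU 24 (52.2%) were higher and 8 (17.4%) lower than in CD200+ non-MRU, against 24.1% and 20.1% of all tested genes, with a median of 0.81, against 0.01. By role, 8 of 11 receptors and 4 of 5 Smads were higher in CD200+CD200R1+ MRU, and 9 of 11 receptors and 4 of 5 Smads in remaining MRU. These comparisons share the CD200+ non-MRU libraries. Macrophage marker sums were 2720.3 to 5709.5 CPM in CD200+CD200R1+ MRU and 1324 to 2169 CPM in remaining MRU, against 43.4 to 201 CPM in CD200+ non-MRU, with 8 of 8 markers higher in both, and their part was not tested.

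Against CD200R1+ non-MRU, the split was nearer to even and depended on scaling. In CD200+CD200R1+ MRU 12 genes (26.1%) were higher and 18 (39.1%) lower than in CD200R1+ non-MRU, against 22.8% and 24% of all tested genes, and the median log2 fold change was -0.31, against 0.01. In remaining MRU 11 (23.9%) were higher and 16 (34.8%) lower, against 22.4% and 21.6% of all tested genes, with a median of 0.00, against 0.02. With library size alone the counts were 15 higher and 12 lower in CD200+CD200R1+ MRU and 18 higher and 9 lower in remaining MRU. All tested genes then stood at 40.3% higher and 14.6% lower in CD200+CD200R1+ MRU. In remaining MRU they stood at 38.5% higher and 13.1% lower. Higher pathway genes then made up 55.6% of the pathway genes that passed in CD200+CD200R1+ MRU, against 40% with TMM. In remaining MRU they made up 66.7%, against 40.7% with TMM.

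**Figure D2:**
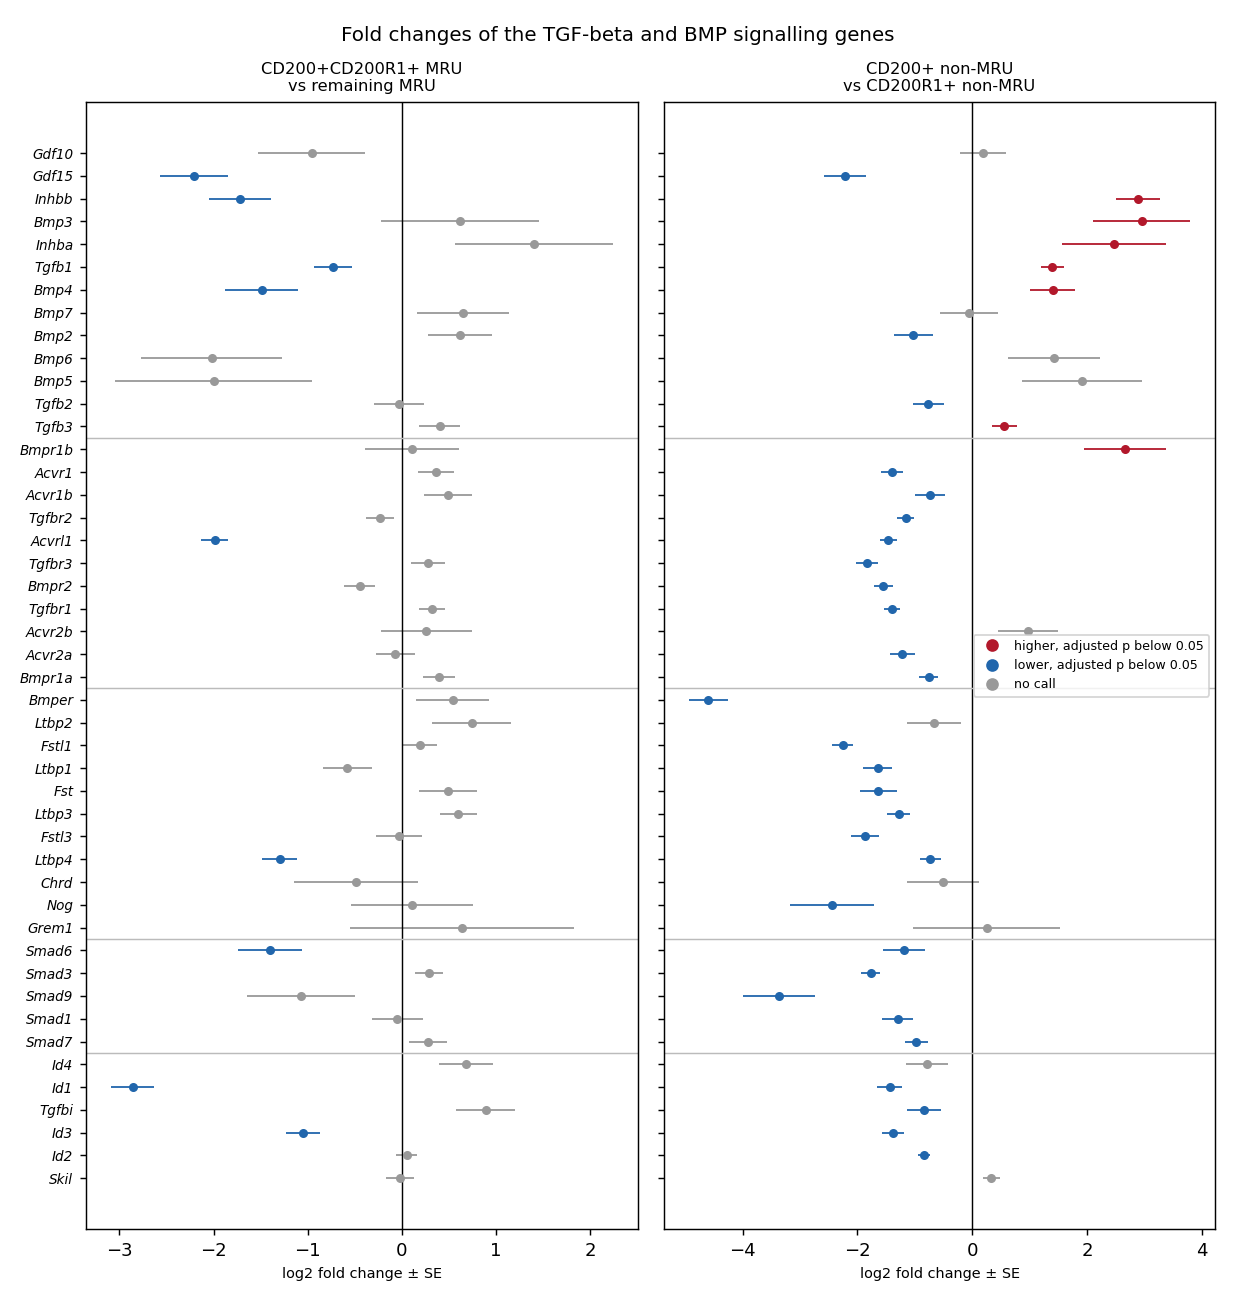
Points are log2 fold changes of the TGF-beta and BMP signalling genes with their SE, CD200+CD200R1+ MRU against remaining MRU on the left and CD200+ non-MRU against CD200R1+ non-MRU on the right; red and blue mark genes that passed at an adjusted p below 0.05, and grey lines divide the roles. On the left 9 points are blue and 0 red; on the right 7 are red and 29 blue, with 6 of the red ones among the ligands. With library size alone the right side had 9 higher and 22 lower.

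Ligands showed no single direction across the populations. Per kilobase of exon, Gdf15 had the highest mean level of the ligands in CD200+CD200R1+ MRU (16.2 CPM per kb), remaining MRU (75) and CD200R1+ non-MRU (25.8), and Gdf10 in CD200+ non-MRU (20.5). Gdf10, also called BMP3b, (ENSMUSG00000021943, chromosome 14, 33923587 to 33937983) had 0.449, 0.633, 0.604, 2.3 and 1.24 CPM in CD200+CD200R1+ MRU and 5.41, 1.44, 0.496, 2.14 and 0.585 CPM in remaining MRU. Gdf10 had 95.7, 93.2, 144, 85 and 117 CPM in CD200+ non-MRU and 97, 134, 47.4, 141 and 53.1 CPM in CD200R1+ non-MRU. The lowest non-MRU library thus stood well above the highest MRU library, and the log2 fold changes against CD200+ non-MRU were -6.67 for CD200+CD200R1+ MRU (adjusted p = 4.5e-09) and -5.71 for remaining MRU (adjusted p = 1.8e-08). Gdf10 did not pass within the MRU gate (log2 fold change -0.96, SE 0.57, adjusted p = 0.39) or between the non-MRU populations (log2 fold change 0.18, SE 0.4, adjusted p = 0.73).

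Gdf15, a distant member of the family induced by cell stress (ENSMUSG00000038508, chromosome 8, 70629393 to 70632456), had 18, 41.2, 18, 33.5 and 39.9 CPM in CD200+CD200R1+ MRU and 111, 153, 140.5, 140 and 150.2 CPM in remaining MRU. Gdf15 had 4.65, 13.5, 11.3, 8.16 and 13.7 CPM in CD200+ non-MRU and 62.8, 93.4, 19.3, 38.4 and 25 CPM in CD200R1+ non-MRU. All remaining MRU libraries were above those of the other populations, and Gdf15 was 4.61-fold lower in CD200+CD200R1+ MRU than in remaining MRU (log2 fold change -2.21, SE 0.36, adjusted p = 0.00026, lower in 5 of 5 mice). Inhbb, the activin and inhibin beta-B subunit (ENSMUSG00000037035, chromosome 1, 119415465 to 119422248), had 7.78, 7.67, 5.74, 7.52 and 5.32 CPM in CD200+CD200R1+ MRU and 13.9, 32, 20, 22.6 and 23.7 CPM in remaining MRU. Inhbb had 10.9, 7.04, 11.1, 7.43 and 12.2 CPM in CD200+ non-MRU and 0.327, 2.2, 0.652, 2.52 and 0.813 CPM in CD200R1+ non-MRU, where every library was below all others. It was 3.29-fold lower in CD200+CD200R1+ MRU than in remaining MRU (log2 fold change -1.72, SE 0.33, adjusted p = 0.0014) and 7.41-fold higher in CD200+ non-MRU than in CD200R1+ non-MRU (log2 fold change 2.89, SE 0.38, adjusted p = 1.6e-06).

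Tgfb1, the TGF-beta isoform most studied as an immune regulator (ENSMUSG00000002603, chromosome 7, 25687002 to 25705077), had 12.7, 17.4, 19.8, 17.3 and 13 CPM in CD200+CD200R1+ MRU and 21.6, 32.9, 25.8, 26.7 and 26.3 CPM in remaining MRU. Tgfb1 had 67.5, 48.3, 53.6, 68 and 93.7 CPM in CD200+ non-MRU and 23, 32.7, 25.4, 28.6 and 16.5 CPM in CD200R1+ non-MRU. The CD200+ non-MRU libraries were above all others, and their lymphocyte marker sums were too; the part of those markers was not tested. Tgfb1 was 2.62-fold higher in CD200+ non-MRU than in CD200R1+ non-MRU (log2 fold change 1.39, SE 0.2, adjusted p = 4.4e-06). Within the MRU gate it was 1.66-fold lower in the CD200+CD200R1+ MRU libraries (log2 fold change -0.73, SE 0.2, adjusted p = 0.02), without overlap. That call was lost when mouse 2 or mouse 6 was left out of CD200+CD200R1+ MRU or mouse 3 out of remaining MRU (adjusted p = 0.0595, 0.061 and 0.074).

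Bmp4 (ENSMUSG00000021835, chromosome 14, 46383520 to 46390669), a BMP known from mesenchyme, had 6.36, 3.94, 2.19, 3.99 and 3.64 CPM in CD200+CD200R1+ MRU and 11.1, 19.5, 4.13, 13.8 and 8.1 CPM in remaining MRU. Bmp4 had 12.3, 26.2, 12.3, 23 and 11.7 CPM in CD200+ non-MRU and 5.68, 5.33, 4.1, 12.4 and 4.88 CPM in CD200R1+ non-MRU. The 2 MRU populations overlapped through remaining MRU of mouse 4, and Bmp4 was 2.81-fold lower in the CD200+CD200R1+ MRU libraries (log2 fold change -1.49, SE 0.39, adjusted p = 0.018, lower in 5 of 5 mice). The call was lost when mouse 4 was left out of CD200+CD200R1+ MRU (adjusted p = 0.0612) or mouse 3 out of remaining MRU (adjusted p = 0.0813). Bmp7 (ENSMUSG00000008999, chromosome 2, 172868012 to 172940321), an epithelial BMP, had 59.2, 55.7, 69.6, 38.4 and 69.7 CPM in CD200+CD200R1+ MRU and 38.1, 24.8, 55.2, 19.3 and 49.2 CPM in remaining MRU. Bmp7 had 17.2, 23.2, 18.8, 22.9 and 4.65 CPM in CD200+ non-MRU and 8.51, 14.1, 47.9, 17.1 and 2.54 CPM in CD200R1+ non-MRU. Its mean was highest in CD200+CD200R1+ MRU, where it was 3.37-fold higher than in CD200+ non-MRU (log2 fold change 1.75, SE 0.5, adjusted p = 0.0067) with no overlap. It did not pass within the MRU gate (log2 fold change 0.65, SE 0.49, adjusted p = 0.53). Blocked by mouse, 2 more differences of remaining MRU over CD200R1+ non-MRU passed, Bmp4 (log2 0.74, adjusted p = 0.0426) and Bmp7 (log2 1.29, adjusted p = 0.0419). Both also passed with library size alone (adjusted p = 0.0108 and 0.0255). Bmp7 passed with voom too (adjusted p = 0.0262), and without CD200R1+ non-MRU of mouse 4 (log2 1.82, adjusted p = 0.00276). Bmp4 passed without remaining MRU of mouse 4 or CD200R1+ non-MRU of mouse 5 (adjusted p = 0.0246 and 0.0174).

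Bmp2 (ENSMUSG00000027358, chromosome 2, 133552159 to 133562885) had 24, 22.6, 31.8, 22.3 and 17.8 CPM in CD200+CD200R1+ MRU and 16.1, 16.1, 17.1, 17.3 and 10.4 CPM in remaining MRU. Bmp2 had 28.8, 35.1, 25.8, 18.2 and 8.4 CPM in CD200+ non-MRU and 95.2, 55.5, 30.9, 30.7 and 25.6 CPM in CD200R1+ non-MRU. The MRU populations did not overlap, yet Bmp2 did not pass between them (log2 fold change 0.62, SE 0.34, adjusted p = 0.34); it did when only MRU libraries were fitted (adjusted p = 0.0294). Bmp2 was 3.09-fold lower in remaining MRU than in CD200R1+ non-MRU (log2 fold change -1.63, SE 0.35, adjusted p = 0.00054), whose library of mouse 2 was highest.

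Other ligands spanned a narrower range or had low counts. Tgfb2 had means of 26.7 ± 8.33 CPM in CD200+CD200R1+ MRU, 27.3 ± 8.54 CPM in remaining MRU, 27.1 ± 6.43 CPM in CD200+ non-MRU and 46.3 ± 17 CPM in CD200R1+ non-MRU. Tgfb3 had 33.2 ± 8.85, 25.2 ± 1.61, 31.4 ± 8.32 and 21.3 ± 7.24 CPM in that order. Bmp3, Inhba, Bmp5 and Bmp6 stayed below 10 CPM on average in every population. Bmp3 averaged 7.6 ± 4.12 CPM in CD200+ non-MRU and 0.974 ± 0.944 CPM in CD200R1+ non-MRU (log2 fold change 2.95, SE 0.85, adjusted p = 0.0059). Inhba, the activin A subunit, was carried by single libraries, with 20.8 CPM in CD200+ non-MRU of mouse 6 and at most 3.02 CPM in the other 4 libraries of that population. Without that library, Inhba no longer passed between the non-MRU populations (adjusted p = 0.22), nor did it without CD200R1+ non-MRU of mouse 4, 5 or 6 (adjusted p = 0.053, 0.053 and 0.054). Bmp6 passed in remaining MRU against CD200R1+ non-MRU (log2 fold change 2.49, SE 0.8, adjusted p = 0.014), and Bmp5, of whose exon length 46.7% overlaps another gene, passed in no comparison with edgeR's main settings. In CD200+CD200R1+ MRU against CD200+ non-MRU, Bmp5 passed when blocked by mouse (log2 -2.66, adjusted p = 0.042), with voom (log2 -2.72, adjusted p = 0.046) and when mouse 3 was left out of CD200+CD200R1+ MRU (log2 -3.88, adjusted p = 0.014).

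**Figure D3:**
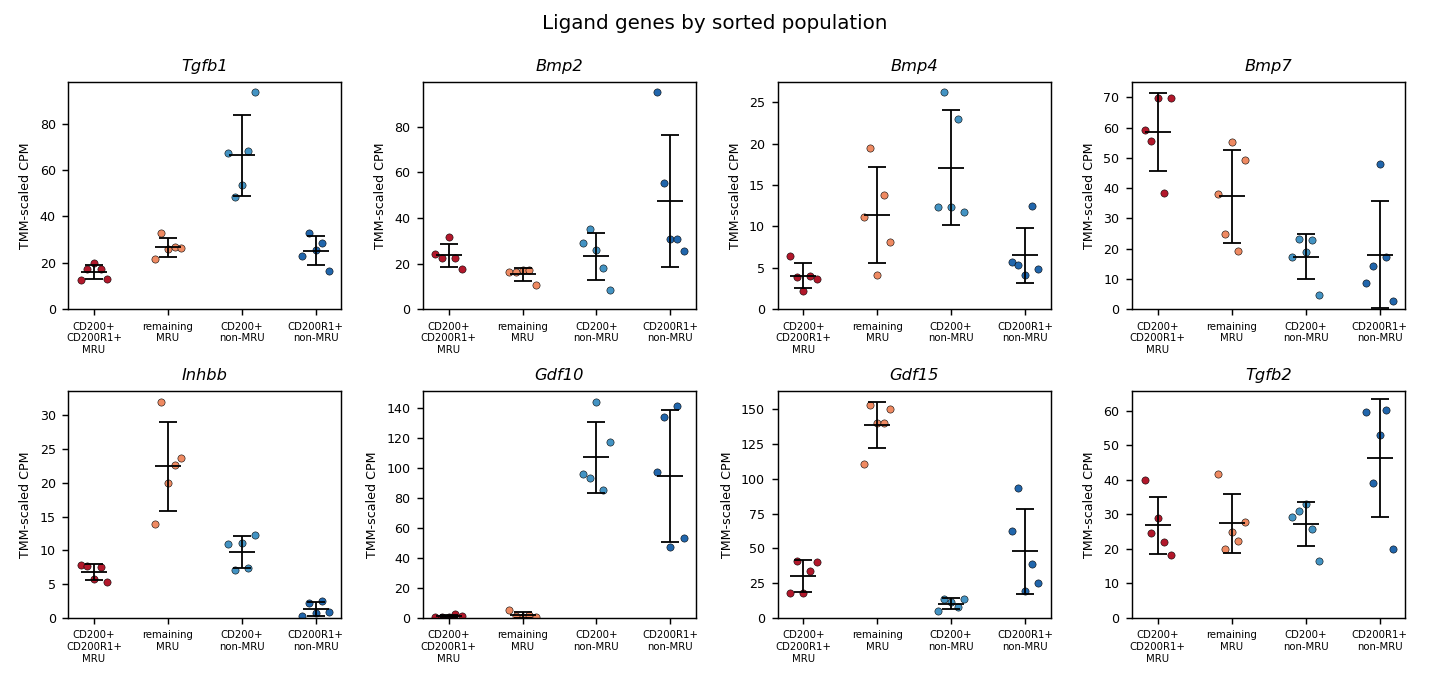
TMM-scaled CPM of 8 ligand genes; each point is a library, and the bar is the mean with its SD over 5 libraries. Gdf10 is near 0 in both MRU populations, Gdf15 and Inhbb are highest in remaining MRU, and Tgfb1 is highest in CD200+ non-MRU.

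Of the receptors, Tgfbr1, Tgfbr3, Bmpr1a, Bmpr2, Acvr1, Acvr1b and Acvr2a had their lowest mean in CD200+ non-MRU. Per kilobase of exon, Tgfbr3 had the highest mean level of the 11 receptors in all 4 populations, from 25.3 CPM per kb in CD200+ non-MRU to 90.8 in CD200R1+ non-MRU. Tgfbr3 encodes betaglycan, a co-receptor that presents TGF-beta2 and binds inhibin (ENSMUSG00000029287, chromosome 5, 107106570 to 107289629). It had 474, 395, 293, 361 and 515 CPM in CD200+CD200R1+ MRU and 371, 333, 282, 331 and 358 CPM in remaining MRU. Tgfbr3 had 177, 207, 184, 175 and 86.1 CPM in CD200+ non-MRU and 533, 601, 626, 652 and 560.5 CPM in CD200R1+ non-MRU. Libraries of CD200+ non-MRU were below all others and Tgfbr3 was 3.59-fold lower there than in CD200R1+ non-MRU (log2 fold change -1.84, SE 0.19, adjusted p = 4.5e-08).

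Tgfbr2, the type II receptor of TGF-beta (ENSMUSG00000032440, chromosome 9, 116084293 to 116175360), had 70.1, 75.3, 85.7, 100 and 63.5 CPM in CD200+CD200R1+ MRU and 93.6, 97.1, 87.5, 86.5 and 96.6 CPM in remaining MRU. Tgfbr2 had 168, 183, 133, 170.4 and 109.9 CPM in CD200+ non-MRU and 390.2, 294, 390, 345 and 284 CPM in CD200R1+ non-MRU. Both MRU populations were below both non-MRU populations in every library. Tgfbr2 was 4.32-fold lower in the CD200+CD200R1+ MRU libraries (log2 fold change -2.11, SE 0.15, adjusted p = 1.9e-10) and 3.69-fold lower in remaining MRU (log2 fold change -1.88, SE 0.15, adjusted p = 1.1e-09) than in CD200R1+ non-MRU. Tgfbr1, its type I partner ALK5 (ENSMUSG00000007613, chromosome 4, 47353222 to 47414931), had 149, 132, 104, 119 and 125 CPM in CD200+CD200R1+ MRU and 128, 102, 93.2, 89.5 and 92.3 CPM in remaining MRU. Tgfbr1 had 54.8, 61.5, 43.1, 58.8 and 43.1 CPM in CD200+ non-MRU and 150, 134, 156, 139 and 112 CPM in CD200R1+ non-MRU. It was 2.41-fold higher in CD200+CD200R1+ MRU than in CD200+ non-MRU (log2 fold change 1.27, SE 0.14, adjusted p = 2.3e-07), while the difference from CD200R1+ non-MRU did not pass (log2 fold change -0.13, SE 0.14, adjusted p = 0.45) and had the opposite sign with library size alone (log2 0.28).

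The type I receptors Acvr1 and Acvr1b had their highest means in CD200+CD200R1+ MRU. Acvr1, the BMP receptor ALK2 (ENSMUSG00000026836, chromosome 2, 58388644 to 58567157), had 101, 71.4, 67.5, 67.4 and 73.5 CPM in CD200+CD200R1+ MRU and 72.6, 60.9, 59.8, 56.4 and 47.7 CPM in remaining MRU. Acvr1 had 8.99, 21.3, 16, 17.4 and 16 CPM in CD200+ non-MRU and 48.2, 31.2, 50.7, 45.4 and 34.5 CPM in CD200R1+ non-MRU. It was 4.77-fold higher in CD200+CD200R1+ MRU than in CD200+ non-MRU (log2 fold change 2.25, SE 0.2, adjusted p = 1.1e-08) and 1.81-fold higher than in CD200R1+ non-MRU (log2 fold change 0.86, SE 0.19, adjusted p = 0.00075). Acvr1b, the activin receptor ALK4 (ENSMUSG00000000532, chromosome 15, 101174067 to 101213684), had 22.9, 31.7, 20.6, 37 and 21.7 CPM in CD200+CD200R1+ MRU and 22.1, 20.3, 13.4, 20.2 and 19.2 CPM in remaining MRU. Acvr1b had 7.26, 6.07, 6.18, 3.16 and 5.46 CPM in CD200+ non-MRU and 15.7, 8.89, 9.23, 6.45 and 6.4 CPM in CD200R1+ non-MRU. It was 2.87-fold higher in CD200+CD200R1+ MRU than in CD200R1+ non-MRU (log2 fold change 1.52, SE 0.26, adjusted p = 4.6e-05) without overlap, and within the MRU gate neither gene passed (adjusted p = 0.31 for Acvr1 and 0.29 for Acvr1b).

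Acvrl1, the type I receptor ALK1 known chiefly from endothelium (ENSMUSG00000000530, chromosome 15, 101128522 to 101145336), was the 1 receptor that passed within the MRU gate. It had 10.4, 12.9, 12.4, 10.4 and 11.1 CPM in CD200+CD200R1+ MRU and 38.2, 53.5, 47.8, 46.9 and 41.3 CPM in remaining MRU. Acvrl1 had 14.3, 14.3, 14, 17.9 and 13.9 CPM in CD200+ non-MRU and 35.4, 41.7, 33.7, 49.3 and 45.1 CPM in CD200R1+ non-MRU. It was 3.98-fold lower in CD200+CD200R1+ MRU than in remaining MRU (log2 fold change -1.99, SE 0.14, adjusted p = 9.8e-09, lower in 5 of 5 mice). Endothelial marker sums were 58.8 to 242 CPM and 2126 to 2981 CPM in those populations, and their part was not tested. In CD200R1+ non-MRU, where Acvrl1 was also high, these sums were 169 to 255 CPM. With library size alone, Acvrl1 was higher in remaining MRU than in CD200R1+ non-MRU (log2 0.54, adjusted p = 0.00173).

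Bmpr2, the type II BMP receptor (ENSMUSG00000067336, chromosome 1, 59763400 to 59879014), had 179, 155, 139.7, 185 and 165 CPM in CD200+CD200R1+ MRU and 224, 249, 224, 210.4 and 215 CPM in remaining MRU. Bmpr2 had 70.5, 92, 66.4, 63.3 and 40.5 CPM in CD200+ non-MRU and 236, 156, 229, 169 and 183 CPM in CD200R1+ non-MRU. CD200+CD200R1+ MRU and remaining MRU did not overlap, but the difference did not pass in the fit over all populations (log2 fold change -0.45, SE 0.16, adjusted p = 0.1). It did when only MRU libraries were fitted (adjusted p = 0.00903). Of the other receptors, Bmpr1a, a type I BMP receptor, averaged 130.1 ± 15.6 CPM in CD200+CD200R1+ MRU, 99 ± 13 CPM in remaining MRU, 59 ± 16.5 CPM in CD200+ non-MRU and 99.7 ± 14.1 CPM in CD200R1+ non-MRU. The activin type II receptor Acvr2a averaged 34.9 ± 3.88, 36.6 ± 3.4, 20.8 ± 6.93 and 48.5 ± 14.8 CPM in the same order. Bmpr1b, another type I BMP receptor, averaged 5.05 ± 2.77 and 4.67 ± 1.61 CPM in the MRU populations, against 0.96 ± 0.719 CPM in CD200+ non-MRU and 0.146 ± 0.0947 CPM in CD200R1+ non-MRU, where it had 7 counts in all. Acvr2b stayed between 1.31 and 3.82 CPM in CD200+CD200R1+ MRU and between 0 and 1.3 CPM in CD200R1+ non-MRU (log2 fold change 1.67, SE 0.51, adjusted p = 0.01).

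The extracellular regulator Bmper had the widest range of population means among the 46 genes, followed by the ligand Gdf10, the target Id4 and the extracellular regulator Ltbp2. Per kilobase of exon, Fstl1 had the highest mean level of the 11 in every population. Fstl1 encodes follistatin-like 1, a secreted glycoprotein of mesenchyme (ENSMUSG00000022816, chromosome 16, 37776873 to 37836514). It had 456, 418, 441, 494 and 387 CPM in CD200+CD200R1+ MRU and 393, 392, 389.6, 377 and 378 CPM in remaining MRU. Fstl1 had 866, 805, 762, 622 and 352 CPM in CD200+ non-MRU and 3114, 2852, 4023, 3725 and 2592 CPM in CD200R1+ non-MRU. Every CD200R1+ non-MRU library was above all others, as were its fibroblast marker sums, whose part was not tested. Fstl1 was 4.79-fold lower in CD200+ non-MRU (log2 fold change -2.26, SE 0.19, adjusted p = 2.2e-09) and 7.43-fold lower in the CD200+CD200R1+ MRU libraries (log2 fold change -2.89, SE 0.19, adjusted p = 5e-11) than in CD200R1+ non-MRU.

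Bmper, a secreted modulator of BMP of the crossveinless type (ENSMUSG00000031963, chromosome 9, 23223076 to 23485200), had 1.72, 1.41, 4.91, 1.92 and 2.04 CPM in CD200+CD200R1+ MRU and 2.31, 2.08, 1.24, 1.55 and 1 CPM in remaining MRU. Bmper had 7.34, 11.9, 16, 9.05 and 5.3 CPM in CD200+ non-MRU and 226, 212, 198, 175 and 397 CPM in CD200R1+ non-MRU. Both MRU populations lay below the CD200+ non-MRU libraries, and these below the CD200R1+ non-MRU libraries, with mouse 6 highest there. Bmper was 24.3-fold lower in CD200+ non-MRU than in CD200R1+ non-MRU (log2 fold change -4.6, SE 0.34, adjusted p = 4.3e-10). Ltbp1, a latent TGF-beta binding protein (ENSMUSG00000001870, chromosome 17, 75005568 to 75392512), had 15.9, 19, 19.4, 12.5 and 28.2 CPM in CD200+CD200R1+ MRU and 21.9, 22.8, 33.6, 26 and 37.7 CPM in remaining MRU. Ltbp1 had 44.6, 43.9, 47.8, 38.4 and 17.6 CPM in CD200+ non-MRU and 154, 85.5, 127, 156 and 80.6 CPM in CD200R1+ non-MRU. It was 6.34-fold lower in CD200+CD200R1+ MRU than in CD200R1+ non-MRU (log2 fold change -2.66, SE 0.27, adjusted p = 4.9e-08), with no overlap.

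Ltbp2, a matrix protein of the same family that does not bind latent TGF-beta (ENSMUSG00000002020, chromosome 12, 84783212 to 84876532), ran the opposite way. It had 169.6, 188, 255, 177 and 128 CPM in CD200+CD200R1+ MRU and 129, 106, 132, 87.1 and 96.6 CPM in remaining MRU. Ltbp2 had 3, 7.88, 5.35, 7.43 and 2.69 CPM in CD200+ non-MRU and 23.4, 9.83, 3.36, 4.13 and 1.63 CPM in CD200R1+ non-MRU. All MRU libraries were above all non-MRU libraries, and Ltbp2 was 34.6-fold higher in CD200+CD200R1+ MRU (log2 fold change 5.11, SE 0.51, adjusted p = 6e-08) and 20.7-fold higher in remaining MRU (log2 fold change 4.37, SE 0.49, adjusted p = 3.6e-07) than in CD200+ non-MRU. Within the MRU gate it did not pass (log2 fold change 0.74, SE 0.42, adjusted p = 0.36), although it did with voom (adjusted p = 0.0393) and when only MRU libraries were fitted (adjusted p = 0.00806).

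Ltbp3, a binding protein of latent TGF-beta1 (ENSMUSG00000024940, chromosome 19, 5740904 to 5758532), had 124, 126, 101, 109 and 98.3 CPM in CD200+CD200R1+ MRU and 87.4, 73.3, 60.5, 70.3 and 76.4 CPM in remaining MRU. Ltbp3 had 29.6, 42.7, 30.9, 34.5 and 19.8 CPM in CD200+ non-MRU and 101, 53.2, 99, 79.7 and 50.8 CPM in CD200R1+ non-MRU. The MRU populations did not overlap, with log2 fold change 0.6, SE 0.2, adjusted p = 0.062 between them; blocked by mouse the adjusted p was 0.0482, and with DESeq2 it was 0.0354. Ltbp4 was singled out because it passed within the MRU gate, after its values had been seen (ENSMUSG00000040488, chromosome 7, 27305136 to 27337692). Ltbp4 had 42.1, 60.9, 48.4, 46.4 and 48 CPM in CD200+CD200R1+ MRU and 112, 143, 116, 116 and 117 CPM in remaining MRU. No library of either population overlapped, and Ltbp4 was 2.45-fold lower in the CD200+CD200R1+ MRU libraries (log2 fold change -1.3, SE 0.19, adjusted p = 5.5e-05), the opposite sign to Ltbp3. Its means were 101 ± 25.8 CPM in CD200+ non-MRU and 168 ± 49.5 CPM in CD200R1+ non-MRU.

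The activin antagonist follistatin, Fst (ENSMUSG00000021765, chromosome 13, 114452290 to 114458951), had 399, 350, 398, 260.2 and 336 CPM in CD200+CD200R1+ MRU and 256, 215, 402, 194 and 179 CPM in remaining MRU. Fst had 95.4, 54.7, 68.5, 56.7 and 19.4 CPM in CD200+ non-MRU and 229, 238, 96.9, 223 and 135 CPM in CD200R1+ non-MRU. CD200+ non-MRU libraries were below all others, and mouse 6 was lowest among them. Fst was 5.92-fold higher in CD200+CD200R1+ MRU (log2 fold change 2.56, SE 0.33, adjusted p = 1.8e-06) and 4.23-fold higher in remaining MRU (log2 fold change 2.08, SE 0.32, adjusted p = 2.1e-05) than in CD200+ non-MRU. Fstl3, a follistatin relative (ENSMUSG00000020325, chromosome 10, 79777272 to 79782630), had 21.1, 18.9, 8.68, 8.67 and 14.5 CPM in CD200+CD200R1+ MRU and 20.1, 13.5, 14, 12.9 and 12.7 CPM in remaining MRU. Fstl3 had 5.13, 4.04, 4.59, 4.41 and 5.55 CPM in CD200+ non-MRU and 12.3, 16.4, 20.8, 14.6 and 22.5 CPM in CD200R1+ non-MRU. It too was lowest in CD200+ non-MRU, 3.65-fold below CD200R1+ non-MRU (log2 fold change -1.87, SE 0.25, adjusted p = 2.7e-06), but 47.3% of its exon length overlaps Prss57 on the other strand, and the sources used here do not give the strand setting of the counts.

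The BMP antagonists noggin, chordin and gremlin were scarce. Nog averaged 1.74 ± 0.762 CPM in CD200+CD200R1+ MRU, 1.61 ± 0.756 CPM in remaining MRU, 0.284 ± 0.356 CPM in CD200+ non-MRU and 1.59 ± 0.735 CPM in CD200R1+ non-MRU. Chrd averaged 0.931 ± 0.554, 1.31 ± 0.943, 2.99 ± 1.54 and 4.26 ± 3.03 CPM in the same order. Nog was lower in CD200+ non-MRU than in CD200R1+ non-MRU (log2 fold change -2.44, SE 0.73, adjusted p = 0.0081). Grem1 averaged at most 2.25 ± 1.97 CPM, in CD200+CD200R1+ MRU, and passed in no comparison of all libraries. When mouse 4 was left out of CD200+ non-MRU, Grem1 passed against that population in CD200+CD200R1+ MRU (log2 5.15, adjusted p = 0.0066) and in remaining MRU (log2 4.51, adjusted p = 0.016).

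**Figure D4:**
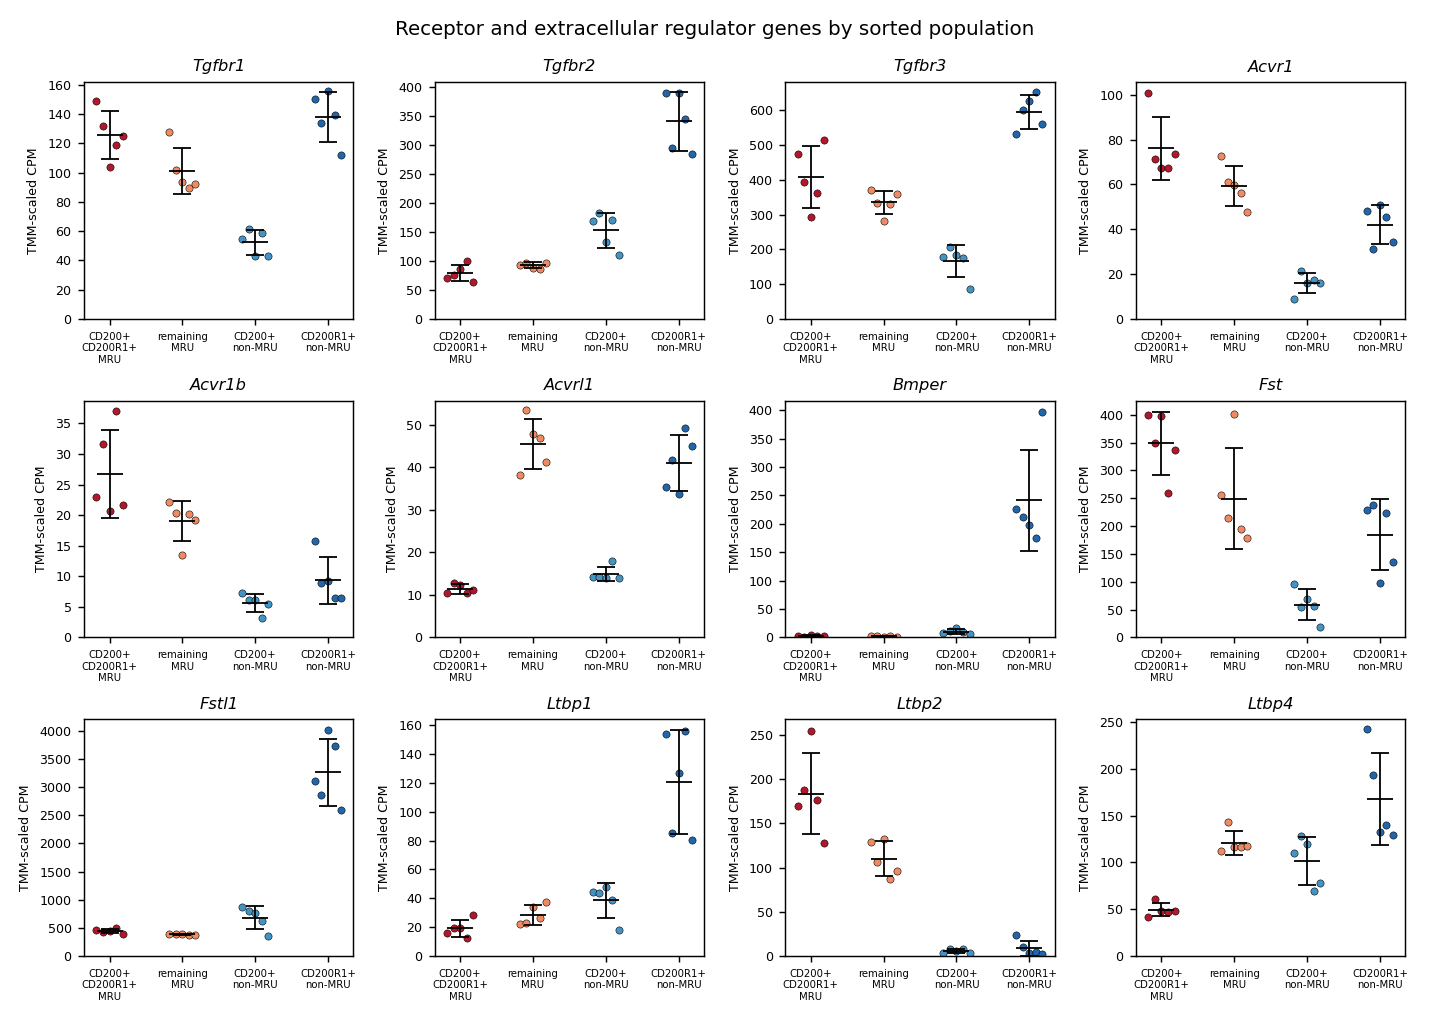
TMM-scaled CPM of 6 receptor genes and 6 extracellular regulator genes; each point is a library, and the bar is the mean with its SD over 5 libraries. Tgfbr2, Bmper, Fstl1 and Ltbp1 are highest in CD200R1+ non-MRU, Ltbp2 is high in both MRU populations, and Acvrl1 and Ltbp4 are lower in CD200+CD200R1+ MRU than in remaining MRU.

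The 5 Smad genes of the main list had their lowest means in CD200+ non-MRU. There 5 of 5 were lower than in CD200R1+ non-MRU, against 28.6% of all tested genes. The Smad6 call was lost with library size alone, with voom and when only non-MRU libraries were fitted (adjusted p = 0.0677, 0.0702 and 0.0706). Smad9 had only 10 counts in CD200+ non-MRU. Outside the main list, Smad4 and Smad5 also had their lowest means there. Smad2 did not, at 52.7 CPM in CD200+ non-MRU against 40 CPM in CD200+CD200R1+ MRU. Smad1, a BMP receptor substrate (ENSMUSG00000031681, chromosome 8, 79338395 to 79399518), had 173, 153, 124, 150.2 and 134 CPM in CD200+CD200R1+ MRU and 175, 153, 150.3, 155 and 124 CPM in remaining MRU. Smad1 had 64.2, 61.2, 47.1, 55.1 and 15.8 CPM in CD200+ non-MRU and 128, 148, 119, 150.2 and 55.5 CPM in CD200R1+ non-MRU. The library of mouse 6 was lowest in both non-MRU populations, and Smad1 was 2.47-fold lower in CD200+ non-MRU than in CD200R1+ non-MRU (log2 fold change -1.3, SE 0.27, adjusted p = 0.00042). Smad3, the TGF-beta and activin receptor substrate (ENSMUSG00000032402, chromosome 9, 63646767 to 63757994), had 40.4, 31.6, 42.5, 37.4 and 30.8 CPM in CD200+CD200R1+ MRU and 41.5, 25.9, 26.1, 26.1 and 29.7 CPM in remaining MRU. Smad3 had 18.1, 19.7, 17.3, 17 and 13.7 CPM in CD200+ non-MRU and 65.4, 56.5, 56.1, 48.2 and 66.4 CPM in CD200R1+ non-MRU. Non-MRU libraries bracketed those of the MRU, and Smad3 was 3.41-fold lower in CD200+ non-MRU than in CD200R1+ non-MRU (log2 fold change -1.77, SE 0.16, adjusted p = 6.2e-09).

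Smad6, the inhibitory Smad that acts mainly on BMP signals (ENSMUSG00000036867, chromosome 9, 63953076 to 64022059), was the 1 Smad that passed within the MRU gate. It had 15.9, 14.6, 10.9, 9.67 and 10.7 CPM in CD200+CD200R1+ MRU and 30.2, 33.9, 35.6, 37 and 26 CPM in remaining MRU. Smad6 had 4.89, 5.16, 3.69, 2.13 and 1.96 CPM in CD200+ non-MRU and 11.5, 8.05, 11.2, 8.56 and 1.52 CPM in CD200R1+ non-MRU. Remaining MRU libraries were above all others, and Smad6 was 2.64-fold lower in the CD200+CD200R1+ MRU libraries (log2 fold change -1.4, SE 0.34, adjusted p = 0.011, lower in 5 of 5 mice). Smad7, which inhibits TGF-beta and BMP receptors alike (ENSMUSG00000025880, chromosome 18, 75367529 to 75395935), had 167, 154, 119, 152 and 109 CPM in CD200+CD200R1+ MRU and 131, 113, 103, 115 and 116 CPM in remaining MRU. Smad7 had 104, 90.5, 67.4, 105 and 89.4 CPM in CD200+ non-MRU and 243, 138, 254, 157 and 106 CPM in CD200R1+ non-MRU. Smad7 did not pass within the MRU gate (log2 fold change 0.28, SE 0.2, adjusted p = 0.49) and was 1.97-fold lower in CD200+ non-MRU than in CD200R1+ non-MRU (log2 fold change -0.98, SE 0.2, adjusted p = 0.00027). Smad9, a further BMP substrate, averaged 0.394 ± 0.223 CPM in CD200+CD200R1+ MRU, 0.839 ± 0.717 CPM in remaining MRU, 0.151 ± 0.0527 CPM in CD200+ non-MRU and 1.65 ± 0.407 CPM in CD200R1+ non-MRU.

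The Id genes encode helix-loop-helix proteins that lack a DNA-binding domain and block the transcription factors they pair with. Id1 (ENSMUSG00000042745, chromosome 2, 152736251 to 152737410) had 106, 114, 76.1, 83.2 and 98.4 CPM in CD200+CD200R1+ MRU and 573, 709.8, 812, 817 and 549 CPM in remaining MRU. Id1 had 64.8, 94.6, 63.6, 48.5 and 61.2 CPM in CD200+ non-MRU and 116, 175, 296, 164 and 150.3 CPM in CD200R1+ non-MRU. Every remaining MRU library was above all others, and Id1 was 7.25-fold lower in CD200+CD200R1+ MRU than in remaining MRU (log2 fold change -2.86, SE 0.23, adjusted p = 2.5e-08, lower in 5 of 5 mice). Id1 was the 1 gene of the 46 that passed in all 6 comparisons. The weakest of these, CD200+CD200R1+ MRU against CD200+ non-MRU (log2 fold change 0.52, SE 0.21, adjusted p = 0.048), was lost in 6 of the 10 fits that each left out 1 library (adjusted p = 0.052 to 0.092).

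Id3 (ENSMUSG00000007872, chromosome 4, 136143497 to 136145755) had 650, 595, 362, 429 and 469 CPM in CD200+CD200R1+ MRU and 1006, 1107, 1104, 1086 and 898 CPM in remaining MRU. Id3 had 689.8, 628, 619, 586 and 351 CPM in CD200+ non-MRU and 1528, 1221, 1919, 1626 and 1161 CPM in CD200R1+ non-MRU. It was 2.08-fold lower in CD200+CD200R1+ MRU than in remaining MRU, without overlap (log2 fold change -1.05, SE 0.18, adjusted p = 5e-04), and 2.98-fold lower than in CD200R1+ non-MRU (log2 fold change -1.57, SE 0.19, adjusted p = 4.1e-07). Endothelial marker sums stood at 58.8 to 242 CPM in CD200+CD200R1+ MRU and 2126 to 2981 CPM in remaining MRU, and their part in the lower Id1, Id3 and Smad6 was not tested. In CD200R1+ non-MRU, where the mean of Id3 was highest, that sum was 169 to 255 CPM. The difference of Id3 between remaining MRU and CD200R1+ non-MRU was small (log2 fold change -0.52), and its call was lost in 9 of 17 alternatives. With library size alone it was -0.14 (adjusted p = 0.533).

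Id4, known from mammary basal cells (ENSMUSG00000021379, chromosome 13, 48261228 to 48266026), had 105, 85.7, 102, 68.6 and 109 CPM in CD200+CD200R1+ MRU and 60.4, 51.6, 68.4, 43.6 and 69.1 CPM in remaining MRU. Id4 had 0.946, 3.21, 2.79, 4.41 and 0.571 CPM in CD200+ non-MRU and 5.68, 5.02, 4.57, 3.33 and 2.34 CPM in CD200R1+ non-MRU. All MRU libraries were above all non-MRU libraries, as were the basal marker sums, and Id4 was 38.9-fold higher in CD200+CD200R1+ MRU than in CD200+ non-MRU (log2 fold change 5.28, SE 0.37, adjusted p = 4.1e-10). Between the MRU populations its sign was opposite to that of Id1 and Id3, but it did not pass (log2 fold change 0.68, SE 0.29, adjusted p = 0.19); it did with voom (adjusted p = 0.0113) and when only MRU libraries were fitted (adjusted p = 0.00648). Id2 (ENSMUSG00000020644, chromosome 12, 25093799 to 25097140) had 1208, 999, 963, 1065 and 1161 CPM in CD200+CD200R1+ MRU and 1040, 949, 1226, 1014 and 1001 CPM in remaining MRU. Id2 had 915, 790.1, 711, 730.1 and 899 CPM in CD200+ non-MRU and 1405, 1553, 1346, 1625 and 1303 CPM in CD200R1+ non-MRU. Its means spanned a narrower range than those of the other Id genes, and it did not pass within the MRU gate (log2 fold change 0.05, SE 0.11, adjusted p = 0.89). Its lower level in CD200+CD200R1+ MRU than in CD200R1+ non-MRU (log2 fold change -0.42, SE 0.11, adjusted p = 0.004) did not hold with library size alone, where the log2 fold change was 0.00 (adjusted p = 0.982).

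Tgfbi, a matrix protein induced by TGF-beta (ENSMUSG00000035493, chromosome 13, 56609523 to 56639562), had 49, 68.4, 103, 57.4 and 36.2 CPM in CD200+CD200R1+ MRU and 31.3, 35.5, 37.7, 33.4 and 31.8 CPM in remaining MRU. Tgfbi had 102, 105, 90.2, 153 and 55.9 CPM in CD200+ non-MRU and 206, 163, 128, 327 and 83.5 CPM in CD200R1+ non-MRU. It was 5.34-fold lower in remaining MRU than in CD200R1+ non-MRU (log2 fold change -2.42, SE 0.32, adjusted p = 1.9e-06) without overlap. Within the MRU gate it did not pass (log2 fold change 0.89, SE 0.31, adjusted p = 0.083), but it did in the fit blocked by mouse (adjusted p = 0.0418), as did its lower level in CD200+CD200R1+ MRU than in CD200+ non-MRU (log2 -0.66, adjusted p = 0.0309). The difference between the MRU populations also passed with DESeq2 (adjusted p = 0.0411), when only MRU libraries were fitted (adjusted p = 0.0108) and when mouse 6 was left out of CD200+CD200R1+ MRU (adjusted p = 0.0435). Skil, which encodes the Smad corepressor SnoN (ENSMUSG00000027660, chromosome 3, 31095058 to 31122577), had 235, 236, 180.3, 198 and 158 CPM in CD200+CD200R1+ MRU and 238, 242, 169, 207 and 169.6 CPM in remaining MRU. Skil had 307, 306, 239, 253 and 231 CPM in CD200+ non-MRU and 237, 223, 232, 213 and 160.1 CPM in CD200R1+ non-MRU. Its means spanned the narrowest range of the targets, from 202 ± 34 CPM in CD200+CD200R1+ MRU to 267 ± 36.8 CPM in CD200+ non-MRU. Blocked by mouse, the log2 fold change of CD200+ non-MRU over CD200R1+ non-MRU was 0.33 (adjusted p = 0.00517).

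**Figure D5:**
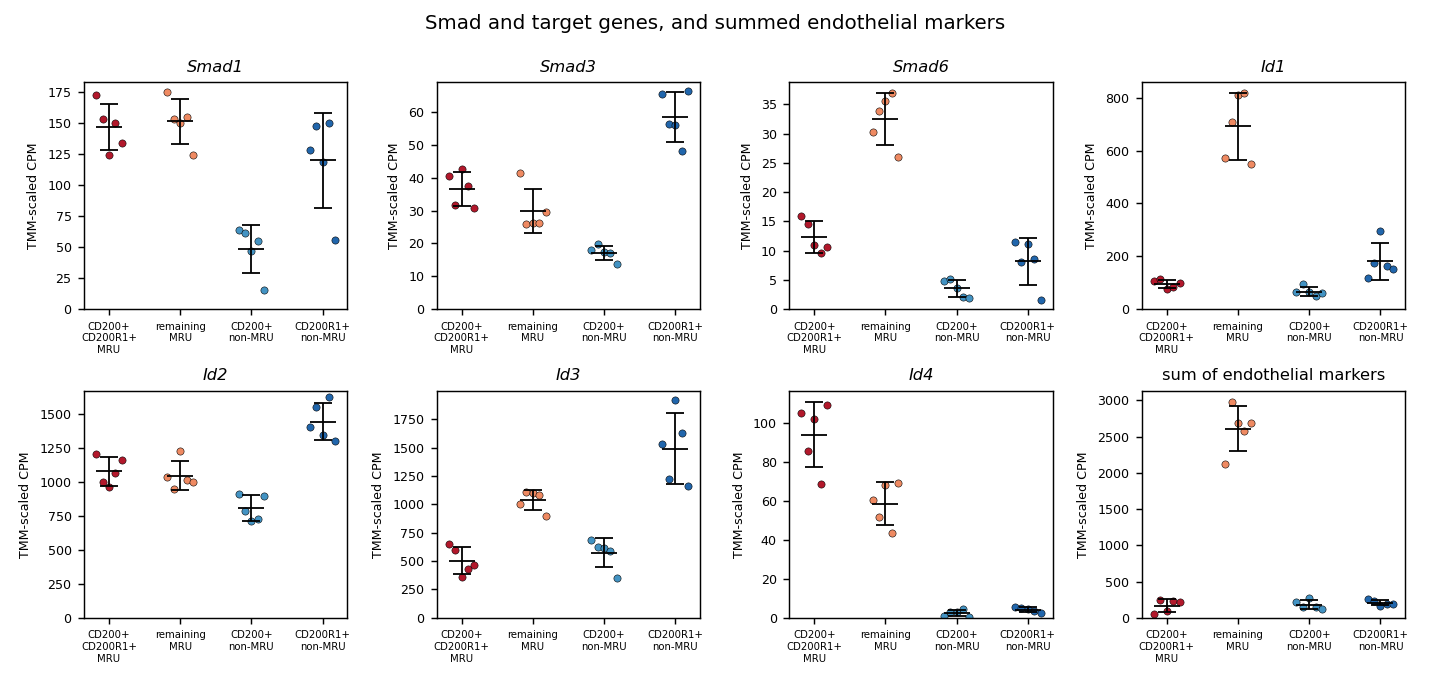
TMM-scaled CPM of 3 Smad genes and 4 Id genes, and the sum of the 10 endothelial markers; each point is a library, and the bar is the mean with its SD over 5 libraries. Smad6, Id1 and the endothelial sum are highest in remaining MRU, Id3 and Id2 are highest in CD200R1+ non-MRU, and Id4 is high in both MRU populations.

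Promoter sequences were looked up because Smad6 and the Id genes are known as targets of BMP Smads. Of the 46 genes, 35 had an entry in the RefSeq promoter table (GRCm38.p6), and the 250 bases upstream of the start are shown for Smad6, which passed within the MRU gate, and for Id4, which did not. Neither window overlaps an exon of GENCODE M21; those of Id2 and Id3 do and are not shown. Capitals mark GTCT, the core of the Smad-binding element, read on both strands (AGAC on the other), and the palindrome GGCGCC, a GC-rich motif bound by BMP Smads; the 2 motifs do not overlap each other in these windows.
Smad6, chr9:64022060-64022309, minus strand: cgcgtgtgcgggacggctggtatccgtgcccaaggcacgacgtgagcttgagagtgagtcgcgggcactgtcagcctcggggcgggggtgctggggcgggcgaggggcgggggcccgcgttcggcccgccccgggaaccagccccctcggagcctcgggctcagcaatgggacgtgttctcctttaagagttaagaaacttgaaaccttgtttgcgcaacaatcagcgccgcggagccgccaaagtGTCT
Id4, chr13:48260866-48261115, plus strand: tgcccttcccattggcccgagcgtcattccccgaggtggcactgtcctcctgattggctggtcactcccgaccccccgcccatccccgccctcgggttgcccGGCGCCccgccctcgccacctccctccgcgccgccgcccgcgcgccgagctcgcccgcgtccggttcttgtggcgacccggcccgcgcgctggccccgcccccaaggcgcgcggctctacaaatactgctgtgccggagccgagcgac
Smad6 held 1 GTCT and 0 GGCGCC, and Id4 held 0 GTCT and 1 GGCGCC. Over 32851 promoters of the same length, 82.9% held GTCT and 9.59% GGCGCC. A match describes letters in the window and does not show binding.

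Other genes of the pathway, 65 in a list chosen for their known roles, gave 44 that could be tested. This list too was made with earlier results of these data known. Within the MRU gate 1 was higher and 5 were lower in CD200+CD200R1+ MRU, which is 2.27% and 11.4% of those tested, against 1.62% and 6.64% of all tested genes. Their median log2 fold change was -0.06, against 0.02. Lrrc32, or GARP, which docks latent TGF-beta on the cell surface, averaged 6.84 ± 2.11 CPM in CD200+CD200R1+ MRU and 58.2 ± 8.16 CPM in remaining MRU (log2 fold change -3.09, SE 0.23, adjusted p = 1.2e-08). Eng, the endothelial co-receptor endoglin, averaged 19.8 ± 6.7 CPM in CD200+CD200R1+ MRU and 135 ± 30.3 CPM in remaining MRU (log2 fold change -2.77, SE 0.29, adjusted p = 8.9e-07). Msx1, a homeobox target of BMP, averaged 3.44 ± 2.19 CPM in CD200+CD200R1+ MRU and 18.6 ± 3.19 CPM in remaining MRU (log2 fold change -2.43, SE 0.39, adjusted p = 2e-04). Hey1, a transcriptional repressor induced by Notch and BMP, was lower too. The 1 higher gene was Pmepa1, a TGF-beta-induced inhibitor of Smad signalling, which averaged 379.5 ± 46.8 CPM in CD200+CD200R1+ MRU and 219.8 ± 41.7 CPM in remaining MRU (log2 fold change 0.79, SE 0.23, adjusted p = 0.036). Hey1 and Pmepa1 were named after their values were seen.

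Between the non-MRU populations, 9 of the 44 other pathway genes were higher and 23 lower in CD200+ non-MRU, which is 20.5% and 52.3%, against 23.8% and 28.6% of all tested genes. Their median log2 fold change was -0.71, against -0.06. The counts were 12 higher and 19 lower with library size alone, where all tested genes stood at 39.6% higher and 17.6% lower. Msx2, a homeobox target of BMP, averaged 16.7 ± 6.05 CPM in CD200+ non-MRU and 0.241 ± 0.204 CPM in CD200R1+ non-MRU (log2 fold change 6.04, SE 0.46, adjusted p = 8.4e-10). Fbn2, a microfibril protein that anchors latent complexes, averaged 2.07 ± 1.53 CPM in CD200+ non-MRU and 63.4 ± 40.1 CPM in CD200R1+ non-MRU (log2 fold change -4.92, SE 0.45, adjusted p = 1.1e-08). Thbs1, thrombospondin 1, which can activate latent TGF-beta, averaged 147 ± 71.5 CPM in CD200+ non-MRU and 2387 ± 574 CPM in CD200R1+ non-MRU (log2 fold change -4.02, SE 0.33, adjusted p = 2.5e-09).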

How the data were processed

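RNA from 4 sorted mammary populations of 5 mice each was sequenced with the SMART-Seq V4 kit from 1000 cells per library, per the labels. Tools named in the submitters' processing notes are STAR 2.4.2a, HTSeq, cutadapt and DESeq2, with build GRCm38. Whether counting used strand is not stated there. The deposited counts are raw whole reads per Ensembl gene, per the file headers. Another 20 columns of values normalized by the authors were not used. The table held 46603 genes, 37171 with at least 1 count, and 0 lines without a gene.

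The counts were fitted as deposited with edgeR 4.0.16 in R 4.3.3 (filterByExpr, TMM, glmQLFit and glmQLFTest, population as the only term, 20 libraries), and p-values were adjusted by Benjamini-Hochberg over the 17236 genes kept. The fitting scripts were tested on simulated data. Reads carry no molecular identifiers that the sources name. The precision of a level rests on totals of 10853587 to 13862963 counts; the member with the fewest counts in a population, Bmpr1b, had 7. Exon lengths came from GENCODE M21, which matched 46005 of the gene identifiers. Genes given with every value have a mean of at least 10 CPM in 1 population, at most 7 per role by range (pseudocount 0.5), which made 31; of the other pathway genes the text names the 3 that passed with the largest change in each comparison between like gates, among those with a mean of at least 10 CPM in 1 of the 2 populations. The members and lists were chosen with earlier results of these data known. Of the other pathway genes that passed within the MRU gate, 1 is not reported here by name.

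Alternatives were RLE factors, library size alone, no filter, DESeq2 1.42.0, voom (limma 3.58.1), only the 2 populations compared, the mouse number as a block, and leaving out each library. Same-numbered libraries come from the same animal, per the labels. Their deviations from the population means correlated at 0 to 0.26 over 30 pairs, and at 0.13 to 0.26 between the MRU populations. Replicate libraries differed beyond counting noise, with a chi-square per gene of 12.02 to 83.18 over 40 pairs, so each counted as 1 sample.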

Additional observations from a re-analysis of the deposited data

Results flagged for a closer look

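Among 105 sets of 5 libraries, 7 held a library far from the rest, by a gap to its nearest neighbour above 0.71 of the range. Each set was 1 of the 31 genes given with all values, in a population where it averaged at least 10 CPM. Chance flags about 1 in 20. Tgfb2, Tgfb3, Bmpr1a, Acvr2a and Ltbp4 also reached 10 CPM but were not examined. Ltbp4 had a highest value of 143 CPM in remaining MRU, with a median of 116 CPM. Bmp2 stood at 10.4 CPM in remaining MRU of mouse 6, with the next at 16.1. Tgfbr3 had 86.1 CPM in CD200+ non-MRU of mouse 6, below 175 in the next, and this library was also the lowest of its population for Fst, Fstl1, Smad1, Bmp7 and Ltbp1 and in its fibroblast marker sum (7239 CPM). Acvr1 reached 101 CPM in CD200+CD200R1+ MRU of mouse 2, with the next at 73.5. Acvrl1 reached 17.9 CPM in CD200+ non-MRU of mouse 5, above 14.3. Bmper had 397 CPM in CD200R1+ non-MRU of mouse 6, above 226. In remaining MRU of mouse 2, Fstl3 stood at 20.1 CPM (next 14) and Smad3 at 41.5 CPM (next 29.7).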

How the results depend on the processing

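Of 130 calls of the 31 genes given with all values, 108 held in every alternative and 22 were lost in at least 1. With library size alone, 7 of the 46 log2 fold changes of CD200+CD200R1+ MRU against CD200R1+ non-MRU changed sign. Of these only Id2 was a call (0.00, against -0.42 with TMM); Smad7 (0.05, against -0.36), Tgfbr1, Bmpr2, Fstl3, Skil and Bmp5 were not. Another 5 changed sign in remaining MRU against CD200R1+ non-MRU, none of them called. Against remaining MRU, members higher in CD200+CD200R1+ MRU numbered 0 in the main fit. They numbered 2 with DESeq2, 3 with voom, 6 with only the 2 populations and 2 with the mouse number as replicate block. Leaving out 1 library gave 0 to 1. The shares of all tested genes in these fits, and in those without 1 library below, are not given here. With library size alone, 18 members were higher and 9 lower in remaining MRU than in CD200R1+ non-MRU, against 11 and 16 with TMM. All tested genes then stood at 38.5% higher and 13.1% lower, against 22.4% and 21.6% with TMM. The shift of the median by 0.39 shows in those counts. Without 1 library, the counts lower in CD200+CD200R1+ MRU than in remaining MRU ran from 7 to 9, and those in CD200+ non-MRU against CD200R1+ non-MRU from 5 to 7 higher and 26 to 30 lower. Against CD200+ non-MRU they were 21 to 22 higher and 9 to 12 lower in CD200+CD200R1+ MRU, and 24 to 25 higher and 7 to 9 lower in remaining MRU. Against CD200R1+ non-MRU they were 9 to 13 higher and 16 to 20 lower in CD200+CD200R1+ MRU, and 10 to 12 higher and 12 to 15 lower in remaining MRU. Another 34 values were called in no setting, and 14 of them changed sign. The replicate block changed no other call of the 46 genes than those given beside each gene. Depth limits the members with few counts, among them Bmpr1b, Smad9, Bmp6, Nog and Bmp5.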
